A study of Hydra vulgaris with 15 samples.

Results

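Heads of the freshwater polyp Hydra vulgaris treated by RNA interference against the transcription factor Zic4 were compared with heads of control polyps. The comparison holds 8 of the 15 libraries of the series, 4 Zic4 RNAi heads and 4 control heads, chosen by the treatment, replicate number and tissue in each library's title. The 3 control body columns serve here as a tissue reference only. All polyps were of the Basel1 strain and were starved for 4 days, electroporated 4 times, and sampled 1 day after the last electroporation. The labels give the genotype of the groups as wild-type and Zic4 RNAi and name 20 polyps per condition, without saying whether these 20 were pooled in each library or divided among the replicates. What the control polyps were electroporated with is not given in the sources used here, and nothing says whether replicate numbers mark separate cultures or days. The p-values therefore measure the spread between these libraries, which may be partly technical. The source field of every library reads entire animal, while the tissue field gives head or body column, and the tissue field was followed.

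RNA interference brings double-stranded RNA of matching sequence into cells, where the messenger RNA of the gene is then degraded. Zic proteins are zinc-finger transcription factors that take part in early patterning of many animals. A Hydra head consists of a mouth region, which holds the head organizer, and a ring of tentacles covered by large epithelial cells that carry the stinging cells. Epithelial cells of the body column divide and are displaced towards both ends, where they stop dividing and take on the character of tentacle or foot cells. The title of the series names tentacle formation and the identity of epithelial cells as the questions of the study, and the head comparison addresses them in the tissue that bears the tentacles.

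Values were expected counts for 79784 assembled contigs, here called transcripts, and several of them can belong to the same gene. The contig IDs were paired with no gene name, since 0 of them matched a table of 28925 RefSeq genes. The level of Zic4, the head and foot markers and the roles of changed genes were therefore not analysed here, and the treatment of each head rests on its label. At most 2 rising and 2 falling transcripts are given by ID. Head libraries held 17345273 to 21016681 counts. After thinning to the smallest of them, 37200 to 38202 transcripts were detected in RNAi heads and 39402 to 41459 in control heads. These ranges did not overlap, but the difference did not pass after adjustment over 4 library measures (exact two-sided permutation test, p = 0.0286, adjusted p = 0.114, with 0.0286 the lowest value possible for 4 against 4). The 100 most abundant transcripts took 32.5% ± 2.97% of counts in RNAi heads and 30.4% ± 2.27% in control heads (SD, n = 4 each), a difference within that spread (exact two-sided permutation test, p = 0.343, adjusted p = 0.343).

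The rises and falls in RNAi heads differed in size and abundance. Of 31142 transcripts tested, 824 rose (2.65%) and 657 fell (2.11%) in Zic4 RNAi heads, together 4.76% (edgeR quasi-likelihood test with Benjamini-Hochberg adjusted p under 0.05). The rises were mostly small, with a median log2 fold change of 0.37, a fold of 1.29, and 557 of the 824 lay under 1.5-fold. As a set the falls were larger, with a median log2 fold change of −0.82, a fold of 1.76, and 150 of the 657 lay under 1.5-fold. At like abundance this held above 16 CPM, with medians of 0.398 and −0.668 between 16 and 64 CPM, and under 1 CPM. It did not hold between 4 and 16 CPM (0.91 and −0.891) or between 1 and 4 CPM (1.86 and −1.34). Over all tested transcripts the log2 fold change had a median of −0.020, and the median standard error was 0.34, against a median standard error of 0.078 for the rises and 0.15 for the falls. The balance of rises and falls depended on the scaling and on other settings. The TMM composition factors were 1.04 to 1.12 in control heads and 0.928 to 1.03 in RNAi heads, so they differed with the treatment. With library totals alone 268 rose and 840 fell, and the median over all tested transcripts shifted to −0.14. A limma-trend fit after cyclic loess, which takes out trends with abundance between libraries, gave 418 rises and 697 falls, and the same limma fit with TMM factors in its place, added after the data were seen, gave 891 and 817. With the scaling method unchanged, a fit of the 8 heads alone called 528 rises and 710 falls, a filter at a mean of 1 CPM over heads 782 and 812, and an adjusted p under 0.01 306 and 318. In bulk RNA, fewer cells of a type and less RNA per cell cannot be told apart, and this holds for every difference given here.

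Large changes were a minority of the calls. A log2 fold change of at least 1 was fitted for 177 of the rises (0.568% of tested transcripts) and 214 of the falls (0.687%), together 391 (1.26%). A log2 fold change of at least 2 was reached by 75 rises and 48 falls, and of at least 3 by 46 rises and 17 falls. These numbers depend on the settings of the fit. A transcript scarce in control heads could pass the low-count filter through its level in body columns. With no low-count filter 160 of the 177 large rises and 141 of the 214 large falls were called. A fit of the 8 heads alone, with its own filter, scaling factors and estimate of spread, called 109 and 182. In that fit 802 of all 824 rises were tested and kept their sign, and the part of the filter in the lost calls was not tested. No excess of very large rises is read from these numbers. The 35 rises with a mean under 1 CPM (counts relative to the library total, on the TMM scale) had a median fitted log2 fold change of 4.26 and the 13 falls one of −5.70, values that depend on the prior count. A test against a fold of 1.5, rather than against no change, called 125 transcripts (0.401%), 70 higher (0.225%) and 55 lower (0.177%) (edgeR glmTreat, BH adjusted p under 0.05). Called rises fitted at 1 or more on the log2 scale kept their calls under another scaling more often than rises as a whole. Called falls fitted at 1 or more did not do so. With library totals alone 159 of the 177 large rises were called, against 268 of all 824, and after cyclic loess 174 and 339 were. Of the 214 large falls 212 were called with library totals alone, against 655 of all 657, and after cyclic loess 179 and 582 were.

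The whole distribution of p-values was also described. An unadjusted p under 0.05 was found for 5193 transcripts, where 1557 would be so by construction if none differed. From this distribution, limma estimated that 15.8% (local false discovery method) or 17.6% (convex decreasing density method) of tested transcripts differed between RNAi and control heads. With library totals alone the first estimate was 14.7%. These are estimates over transcripts, which are not independent of each other, and they carry no error here.

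The direction of change followed abundance. Among the 536 transcripts over 256 CPM, 156 rose (29.1%) and 16 fell (2.99%). Between 64 and 256 CPM, 250 of 1784 rose and 90 fell. Between 4 and 16 CPM the falls were more frequent, with 232 falls and 89 rises among 7248 transcripts. Under 1 CPM only 35 of 8804 rose and 13 fell, where the median standard error was 1.22 on the log2 scale. The rises over 256 CPM had a median log2 fold change of 0.27, beside a median of 0.18 over all 536 transcripts of that abundance.

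**Figure D1:**
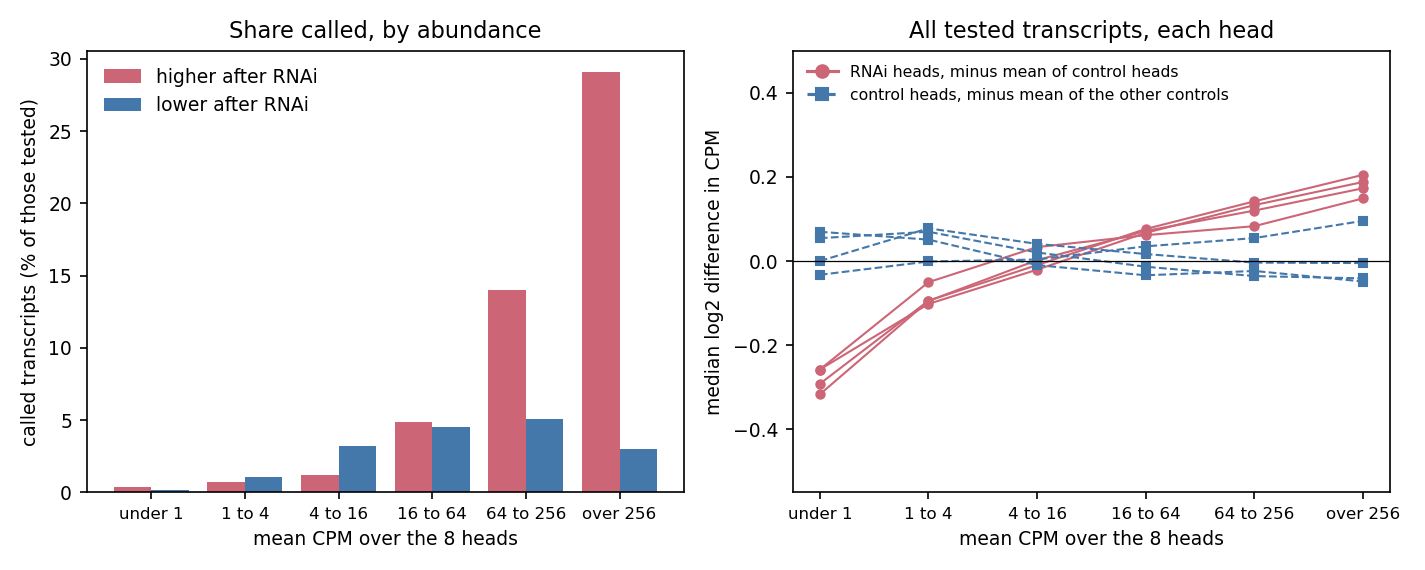
The left panel plots the share of tested transcripts called higher or lower in RNAi heads (percent) by mean CPM over the 8 heads, and the right panel the median log2 difference of all tested transcripts in each head. Over 256 CPM 29.1% were called higher and 2.99% lower, and in the right panel the lines of the 4 RNAi heads climb from below 0 to above 0 while those of the control heads lie nearer to 0. Both panels are on the TMM scale, so the place of 0 depends on factors that differed with the treatment.

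This trend appeared in each RNAi head. For transcripts over 256 CPM the median log2 difference from the mean of the control heads was 0.15, 0.17, 0.21 and 0.19 in RNAi heads 1 to 4. For transcripts under 1 CPM it was −0.26, −0.32, −0.29 and −0.26. Each control head, set against the mean of the other 3, lay between −0.049 and 0.096 over 256 CPM and between −0.033 and 0.070 under 1 CPM. On the TMM scale the 4 RNAi heads thus lay outside the range of the control heads at both ends of the abundance scale. The place of 0 rests on the TMM factors, which differed with the treatment. With library totals alone the median over all tested transcripts shifted from −0.020 to −0.14, so the distance from 0 at each end depends on the scaling. The same heads had fewer detected transcripts at equal depth, and the part of that difference in the trend was not tested.

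The most abundant transcript that rose by at least 1 on the log2 scale was GGKF01023467.1. It had 201, 384, 546 and 248 CPM in control heads 1 to 4, and 903, 1040, 1140 and 871 CPM in RNAi heads 1 to 4. All RNAi heads were above all control heads, since groups without overlap were a condition for every transcript given by ID. Control head 3 was the highest of its group. The mean rose from 345 ± 155 to 990 ± 127 CPM (SD, n = 4 each), a log2 fold change of 1.52 (SE 0.25; edgeR BH adjusted p = 0.00254). Control body columns had 1070, 1610 and 1450 CPM, so the RNAi heads lay between control heads and control body columns, with 1 body column within the range of the RNAi heads. Against a fold of 1.5 it narrowly missed the threshold (glmTreat adjusted p = 0.0502).

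The rise of GGKF01018200.1 took the RNAi heads above both reference tissues. This transcript had 265, 301, 410 and 270 CPM in control heads and 796, 867, 750 and 771 CPM in RNAi heads. The groups did not overlap, and the RNAi heads differed little among themselves. The mean rose from 311 ± 67.7 to 796 ± 50.6 CPM (SD, n = 4 each), a log2 fold change of 1.36 (SE 0.16; edgeR BH adjusted p = 0.000255; adjusted p = 0.00857 against a fold of 1.5). Control body columns had 343, 412 and 547 CPM, all under the lowest RNAi head.

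GGKF01017007.1 was the most abundant of the transcripts that fell by at least 1. It had 723, 819, 1030 and 1130 CPM in control heads and 116, 156, 75.8 and 87.1 CPM in RNAi heads. Every RNAi head was far under every control head. The control mean was 8.49-fold the RNAi mean, with a log2 fold change of −3.09 (SE 0.25; edgeR BH adjusted p = 2.81e-05). Control body columns had 0.833, 2.86 and 1.78 CPM, so the RNAi heads retained a level well above that of the body column.

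GGKF01008523.1 showed the same order of groups with a smaller fall. Control heads had 588, 484, 642 and 750 CPM, and RNAi heads had 238, 225, 162 and 191 CPM. The groups did not overlap. The mean fell from 616 ± 111 to 204 ± 34.3 CPM (SD, n = 4 each), a log2 fold change of −1.60 (SE 0.23; edgeR BH adjusted p = 0.00106; adjusted p = 0.0193 against a fold of 1.5). Control body columns had 3.65, 4.26 and 4.67 CPM. In both falling transcripts control head 4 was the highest control, and RNAi head 3 the lowest of the RNAi heads.

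**Figure D2:**
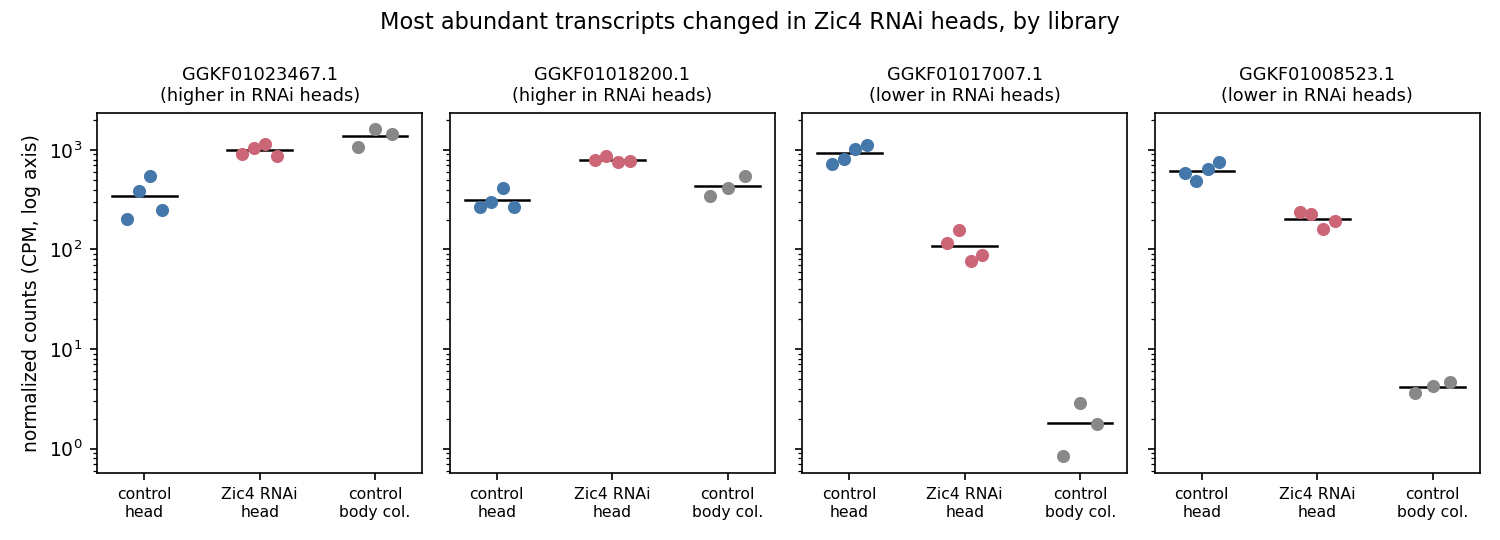
Normalized counts (CPM, log axis) of the 4 transcripts given by ID, each point a library and each bar the mean of its group. In each panel the 4 RNAi heads lie apart from the 4 control heads, which was a condition of the choice. The control body columns lie at 0.833 to 4.67 CPM for the falling transcripts, and at 343 to 1610 CPM for the rising ones.

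The most abundant changes were taken from calls whose groups of heads did not overlap. Their like direction in every RNAi head follows from that choice. Among the 163 rises of at least 1 whose groups of heads did not overlap, the 20 most abundant went from a median of 70.3 CPM in control heads (43.4 to 345) to 224 CPM in RNAi heads (112 to 990). Their log2 fold changes ran from 1.03 to 2.30, with edgeR BH adjusted p between 7.1e-06 and 0.00787. Their levels in control body columns had a median of 270 CPM and ran from 79.7 to 1630, so none was scarce there. Among the 212 falls chosen in the same way, the 20 most abundant went from a median of 120 CPM in control heads (75.5 to 925) to 51.7 CPM in RNAi heads (16.1 to 204). Their log2 fold changes ran from −3.09 to −1.03, with edgeR BH adjusted p between 7.1e-06 and 0.00175. In control body columns these 20 ran from 0.572 to 87 CPM with a median of 12.8, and 8 of them lay under 10 CPM.

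**Figure D3:**
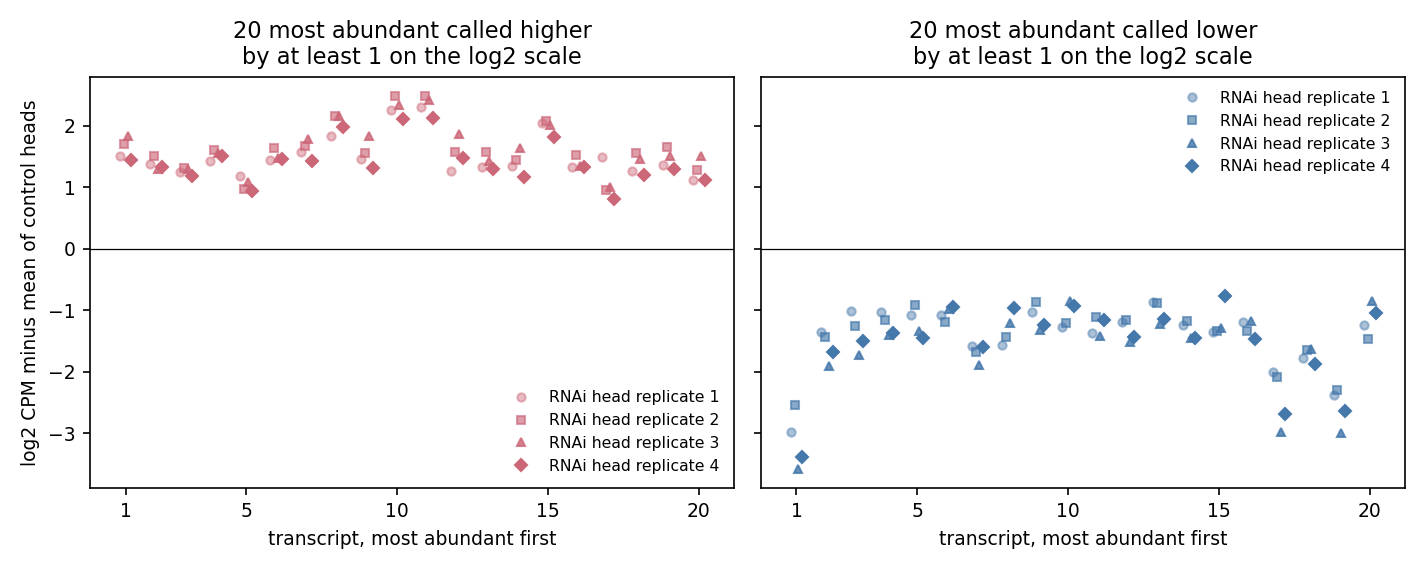
The log2 CPM of each RNAi head minus the mean of the control heads, for the 20 most abundant transcripts called higher (left) and lower (right) by at least 1, ordered by abundance, with a marker for each RNAi head. The transcripts were chosen among those whose groups of heads did not overlap. All heads of a transcript therefore lie on the same side of 0. For the most abundant transcript the heads spread from 1.45 to 1.84 on the left and from −3.58 to −2.54 on the right. The fitted log2 fold changes run from 1.03 to 2.30 on the left and from −3.09 to −1.03 on the right.

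Replicate consistency was first described on the heads that made the calls. All 657 falls lay below the mean of control heads in each of the 4 RNAi heads, and 818 of the 824 rises lay above it in each. The groups did not overlap for 779 of the rises and 644 of the falls. Of all tested transcripts, 5.82% were higher in every RNAi head than in any control head, and 7.36% were lower. These values come from the libraries that selected the transcripts and are a description only. The median log2 difference of the falls was −0.74, −0.85, −0.84 and −0.79 in RNAi heads 1 to 4, and that of the rises was 0.35, 0.41, 0.36 and 0.38. These medians differed little between the RNAi heads, a likeness that selection in the same heads favours.

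Consistency was then measured in heads that had taken no part in the calls. For each replicate number the RNAi head and the control head of that number were left out, transcripts were called with the remaining libraries, and their log2 difference was read in the left-out pair. The 4 fits called 1009, 716, 975 and 636 transcripts. Of these, 88.2%, 96.9%, 93.9% and 96.9% had the same direction in pairs 1 to 4. The falls kept their direction for 90.3%, 99.4%, 97.3% and 98.1%, and the rises for 86.5%, 94.6%, 92.2% and 95.9%. Pair 1 was the lowest in both directions. Over all tested transcripts the sign of the fit was kept for 57.4% to 61.5%.

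The background for rises differs from that for falls because of the trend with abundance. Of all tested transcripts with at least 256 CPM, 68.5%, 84.7%, 78.5% and 85.3% were above 0 in pairs 1 to 4, whatever their calls. Of those with at least 64 CPM, 62.9%, 76.9%, 71.2% and 75% were above 0. Of those between 4 and 64 CPM, 44.9% to 49.6% were below 0, and of those under 4 CPM 52.3% to 56%. The shares of kept falls are thus far from their background, while those of kept rises lie nearer to the background of abundant transcripts. Of rises fitted at 1 or more, 93%, 91.7%, 94% and 93.3% were kept, and of such falls 90.3%, 99.2%, 94.1% and 96.2%. The background of abundant transcripts does not apply to large rises as a set. In the full comparison 35 of the 177 lay under 1 CPM, 53 between 1 and 4 CPM and 8 over 256 CPM.

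The size of the falls carried over to left-out pairs more fully than that of the rises in 3 of the 4 pairs, with pair 1 the exception. The called falls had fitted medians of −0.91, −0.89, −0.88 and −0.91 and medians of −0.54, −0.76, −0.88 and −0.88 in left-out pairs 1 to 4. The called rises had fitted medians of 0.45, 0.72, 0.45 and 0.64 and medians of 0.33, 0.56, 0.25 and 0.46 in the left-out pairs. Pair 1 had the smallest falls. The called falls held 2.65%, 2.35%, 2.18% and 2.15% of the counts of the left-out control heads 1 to 4, and 1.62%, 1.29%, 1.06% and 0.958% of those of the left-out RNAi heads. The called rises held 11.2%, 4.84%, 18.4% and 6.22% of counts in the left-out control heads and 12.8%, 6%, 20.4% and 7.78% in the RNAi heads. Each of the 4 pairs thus showed both shifts.

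**Figure D4:**
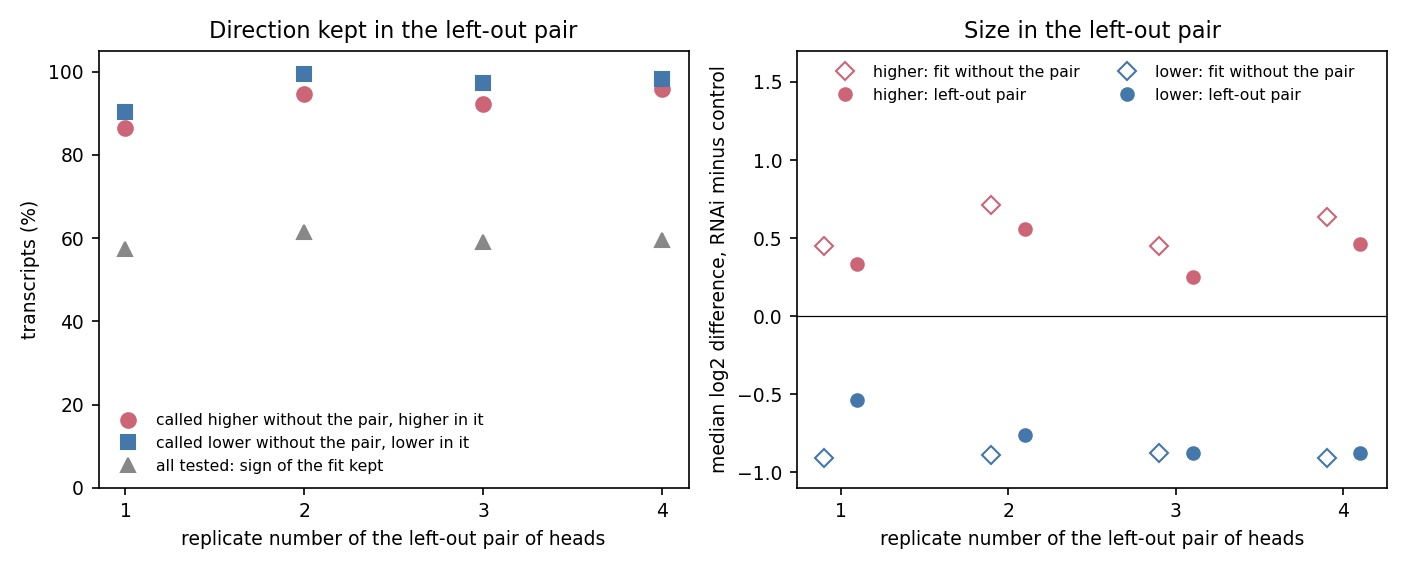
For each replicate number left out, the left panel plots the percent of transcripts with the same direction in the left-out pair, and the right panel the median log2 difference in the fit without the pair (open) and in the left-out pair (filled). Called transcripts kept their direction for 86.5% to 99.4%, beside 57.4% to 61.5% of all tested transcripts.

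The calls overlapped only in part between subsets of heads. Their direction did not change when single heads were left out, which the heads shared between the fits favour. The 4 fits without a pair called 252 rises and 214 falls in common, all of them among the calls of the full comparison. When single heads were left out, 410 of the 824 rises and 355 of the 657 falls were called in all 8 fits, and 7 rises and 36 falls in none. The number of calls was 953 without RNAi head 2, the lowest of the 8 fits. Falls numbered 430 without that head and 405 without control head 4, and rises 523 without RNAi head 2 and 527 without RNAi head 4.

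RNAi heads were about as variable as control heads. The standard deviation of log2 CPM within a group had a median of 0.33 over transcripts in control heads and 0.35 in RNAi heads, and it was larger in RNAi heads for 52% of transcripts. The common biological coefficient of variation was 0.521 in control heads and 0.539 in RNAi heads. A principal component analysis of the 8 heads placed the groups apart on the first component, which held 20% of the variance. RNAi heads lay between 61.1 and 76.8 on it and control heads between −89.8 and −51.5. The second component held 14.9% and separated heads within both groups, with control head 3 at 84.1 and RNAi heads 3 and 4 at 80.5 and 46.1, and the others between −88.2 and −18.

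Transcripts that changed in heads were then set beside their level in control body columns. These libraries are not compared in the head contrast, but they shared its filter, scaling factors and estimate of spread, and a transcript scarce in control heads could pass the filter through its level in body columns. Presence in the body column is therefore partly fixed by the filter. A fit of the 8 heads alone called 109 of the 177 large rises and 182 of the 214 large falls. That fit also changes the scaling factors and the estimate of spread, and the part of the filter was not tested. The 824 rises had medians of 51.7 CPM in control heads, 73.2 in RNAi heads and 70.7 in control body columns. The 657 falls had medians of 20.4 CPM in control heads, 11.4 in RNAi heads and 7.86 in control body columns. All tested transcripts had medians of 3.38, 3.17 and 3.13 CPM. The control heads enter both the head contrast and any contrast with the body column, so these levels are given side by side and no tissue difference is counted from them.

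The falls had their highest median in control heads and their lowest in control body columns in each abundance class above 4 CPM. Between 4 and 16 CPM the falls had medians of 11.6 CPM in control heads, 5.77 in RNAi heads and 4.89 in control body columns, while all tested transcripts had 7.79, 7.63 and 7.60. At lower abundance RNAi heads lay under the body columns, with 3.56, 1.23 and 1.79 CPM between 1 and 4 CPM and 1.28, 0.0243 and 0.442 under 1 CPM. Over 256 CPM the falls had 422, 256 and 175, and all tested transcripts 462, 520 and 481. The rises between 4 and 16 CPM had 6.49, 13.4 and 13.8, so RNAi heads and control body columns had like medians. Over 256 CPM the rises had 466, 601 and 589. At lower abundance the rises too had RNAi heads under the body columns. Their medians were 0.932, 3.64 and 6.46 CPM between 1 and 4 CPM, and 0.0129, 0.918 and 2.39 under 1 CPM. The 177 large rises had 2.12, 6.23 and 13.8.

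**Figure D5:**
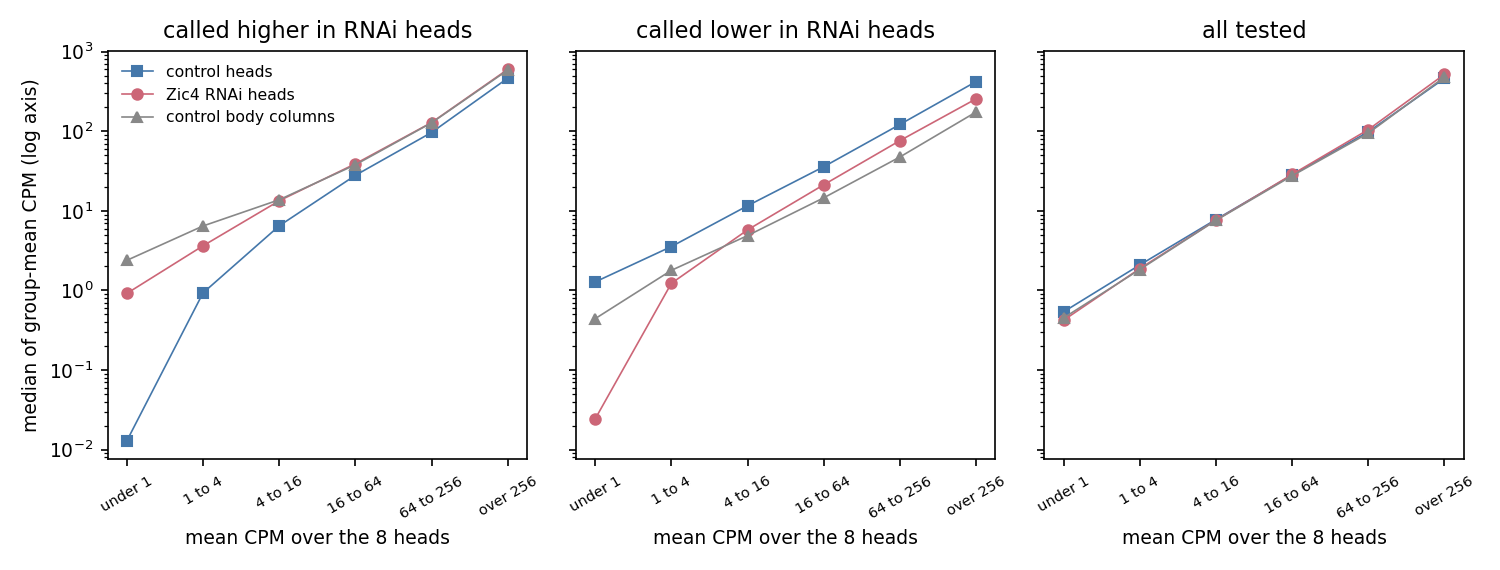
Medians over transcripts of the mean CPM (log axis) of control heads, Zic4 RNAi heads and control body columns, by mean CPM over the 8 heads, for transcripts called higher, called lower and all tested. Above 4 CPM the RNAi heads lie close to the control body columns for the rises and between the 2 tissues for the falls, while the 3 lines nearly coincide for all tested transcripts.

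The share of changed transcripts near absence in control body columns was read beside that of all tested transcripts. In control body columns, 64 of the 657 falls (9.74%) lay under 1 CPM and 23 (3.5%) at 3 counts or fewer in each library. Of the 214 large falls, 62 (29%) lay under 1 CPM there and 22 (10.3%) at the floor of 3 counts. All tested transcripts, which are scarcer, lay under 1 CPM in 30.5% and at the floor in 4.76%. Of the rises, 12 (1.46%) lay under 1 CPM in control body columns, and 3 (0.364%) lay at the floor. At least 64 CPM was reached there by 439 rises (53.3%) and 44 falls (6.7%).

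The RNAi heads did not settle at the body column level for every changed transcript. Among the 163 large rises with groups of heads apart, all RNAi heads lay above all control body columns for 31 (19%), as in GGKF01018200.1. They lay below them for 82 (50.3%) and overlapped them for 50 (30.7%). Among the 212 large falls, all RNAi heads lay above all control body columns for 77 (36.3%), as in GGKF01017007.1. They lay below them for 40 (18.9%) and overlapped them for 95 (44.8%). Over all tested transcripts the libraries overlapped for 68.1%, and RNAi heads lay above for 16.7% and below for 15.2%. The shares of rises above and of falls below were thus near those of all tested transcripts. The RNAi heads also selected these transcripts, so the counts are a description.

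Switch-like changes were counted in both directions. A transcript was counted as lost when it had at least 10 counts in each control head and 3 or fewer in each RNAi head, and as gained in the opposite case. There were 13 lost and 13 gained transcripts among the 79784 contigs. All 26 were tested, and 6 of the lost and 7 of the gained passed the edgeR test. Their levels were low, with a median of 31.8 counts in control heads for the lost and 29 counts in RNAi heads for the gained. An exact 0 can be a failed estimate, since programs of this type divide reads between similar contigs, and 7 of the lost and 10 of the gained were listed at 0 in all 4 heads of the group without reads. In control body columns 5 of the lost and 4 of the gained were at the floor in each library, and 1 and 3 had at least 10 counts in each. These numbers rested on every library and on the floor. Leaving out 1 head gave 28 to 39 lost and 20 to 33 gained transcripts, with 38 lost and 22 gained without control head 3. A floor of 10 counts gave 149 lost and 41 gained, so the numbers were equal only at the floor of 3 counts with all 8 heads.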

How the data were processed

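Stranded mRNA libraries of heads and body columns came from the TruSeq kit of Illumina, per the labels' protocols. The authors deposited expected counts per contig, unscaled, in 1 table. Salmon and DESeq2 1.26.0 are named in the submitters' processing notes; the settings and the transcriptome are not given in the sources used here. Of the nonzero values 74.2% were not whole (tolerance 1e-06).

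Counts were rounded, and no library total moved by more than 145. The filter filterByExpr left 31142 transcripts with 99.7% to 99.8% of the counts of each head. edgeR 4.0.16 in R 4.3.3 fitted 1 model with a mean per group to all 15 libraries, with TMM factors, and tested RNAi against control heads. limma 3.58.1 and SciPy 1.17.1 gave the other estimates. Log2 CPM used a prior count of 2. Amplified reads are not independent molecules, so floors of 3 counts cover counting error only. On simulated heads with 31142 transcripts, 42% of 100 transcripts of at least 1 CPM changed 2-fold and 69% of 100 changed 4-fold were called, and 3 of 114 calls were false.

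Transcripts given by ID were the 2 rises and the 2 falls with the highest mean CPM over heads among calls of at least 1 on the log2 scale whose groups did not overlap. Fits without a pair used the filter set on all libraries, and the log2 CPM read in the left-out pair used TMM factors computed with all libraries. Other scalings, filters, tools (DESeq2 1.42.0, limma), a replicate block and fits without single heads were run as alternatives. Members, lists and tests were chosen with earlier results of these data known.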

Additional observations from a re-analysis of the deposited data

How the results depend on the processing

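The 4 transcripts given by ID kept their direction and passed the threshold of 0.05 in all 18 alternative fits run for each. Their edgeR, DESeq2 or limma adjusted p was at most 0.0216 for GGKF01023467.1, 0.00304 for GGKF01018200.1, 0.000799 for GGKF01017007.1 and 0.00581 for GGKF01008523.1. No transcript called in the full comparison and in another setting changed sign, which the libraries shared by these fits favour. The DESeq2 Wald test called 3076 transcripts, 1546 higher and 1530 lower, 878 of them by at least 1 on the log2 scale, and these held 99.6% of the edgeR calls. An adjusted p under 0.01 left 624, with 306 higher, 318 lower and 223 by at least 1. Library totals alone gave 268 rises, cyclic loess with limma 418, and a fit of the 8 heads alone 528, beside 840, 697 and 710 falls. Without a filter on low counts 432 fell, with more transcripts to adjust over. Leaving out 1 head gave 953 to 1324 calls, 523 to 868 higher, 405 to 541 lower and 282 to 361 by at least 1. A floor of 10 counts gave 149 lost and 41 gained transcripts, and leaving out 1 head 28 to 39 and 20 to 33. Fewer heads to satisfy make these counts larger by construction; the other causes were not tested.

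With the replicate number as a replicate block 987 transcripts were called, 535 higher and 452 lower. Deviations of same-numbered heads from their group means correlated at −0.015 to 0.014 across transcripts, and no head correlated best with its own number. This correlation weighs all tested transcripts alike, scarce ones included. Some whole-library values were alike by number. The effective number of transcripts, given below, was lowest in number 2 and highest in number 4 in both groups. On the second component heads of number 3 lay at 84.1 and 80.5, but those of number 4 at −18 and 46.1. Whether the numbers pair the heads is not settled, and the main fit did not use them. Why fewer transcripts were called under the block was not tested.

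The share of calls kept in left-out pairs averaged 94% and was 94.5% to 96.5% over its alternatives. The whole-library measures say nothing about stability, since a single measure of 4 cannot pass after adjustment in this design. Under 1 CPM the median standard error was 1.22 on the log2 scale, and the part of depth in it was not tested.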

Other observations

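The most abundant transcript over the 8 heads took a larger share of counts in some heads than in others, in both groups. The largest single share was 8.12% in control head 2 and 9.75% in RNAi head 2, against 4.31% in control head 3, 3.34% in control head 1, 6.56% in RNAi head 1 and 3.19% in RNAi head 3. In control head 4 and RNAi head 4 another transcript was the most abundant, with 1.97% and 2.22%. The effective number of transcripts, the exponential of the Shannon entropy at equal depth, was 2450 in control head 2 and 1944 in RNAi head 2, the lowest of the control heads and of all heads. It averaged 2563 ± 500 in RNAi heads and 2982 ± 452 in control heads (SD, n = 4 each), which did not differ beyond the spread between libraries (two-sided exact permutation p = 0.2, adjusted 0.267 over 4 measures).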
